A study of Mus musculus with 6 samples.

Results

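De novo nucleotide synthesis was followed through 10 enzymes, PPAT, GART, PFAS, PAICS, ADSL, ATIC and IMPDH2 of the purine route and CAD, DHODH and UMPS of the pyrimidine route. They were chosen by symbol, and 10 of 10 were found among the 14915 genes of the deposited table. RNA-seq had been made from B16F10, a mouse melanoma cell line, with 3 libraries of wild-type cells (WT) and 3 libraries of cells with the ZBTB5-S127A substitution, which takes away a serine of the transcription factor ZBTB5 that can be phosphorylated. Both groups were treated with TNFα, an inflammatory cytokine, while amino acids were limited, and the design text sets the comparison in the context of mTORC1, a kinase complex that senses amino acids. Untreated cells were not analysed here, and the differences below therefore compare treated groups and say nothing of the response to TNFα. The number of clones behind the S127A line is not given in the sources used here, and nothing says that the replicates were separate cultures, so p-values measure the spread between these libraries, which may be technical.

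The purine route builds the ring of IMP step by step on PRPP, an activated ribose phosphate, drawing on glutamine, glycine, aspartate and formyl groups carried by folate. IMPDH2 then turns IMP towards GMP. The pyrimidine route makes the ring first, through the fused enzyme CAD and the mitochondrial enzyme DHODH, and UMPS joins it to PRPP to give UMP. Dividing tumour cells are known to rely on both routes, and mTORC1 is known to drive them, through the S6 kinase acting on CAD and through ATF4 and MYC acting on gene expression.

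Levels are TPM, read abundance scaled by the length of the gene and the total of the library, so that levels can be compared between genes. Differences are log2 of TPM + 1, S127A minus WT, with the standard error (SE) and the Benjamini-Hochberg adjusted p of limma over 10348 genes with a mean of at least 1 TPM. A gene was called at an adjusted p of at most 0.05. TPM keeps no depth, so the spread over libraries is the only error given.

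The libraries labelled S127A stood far from those labelled WT, and this bears on every value below. Pearson's r over the tested genes, a description since genes are not replicates, was 0.998 for the 6 pairs within a group and 0.676 to 0.679 for the 9 pairs between groups. The summed level of 10 melanocyte markers was 15871 to 16178 TPM in WT and 28.5 to 33.8 TPM in S127A, so the melanoma label was borne out by its markers in WT only. TPM per gene does not show whether the libraries labelled S127A come from the same cell line, so in every value below the substitution and any other difference between the cells of the groups cannot be told apart. SOX10, GPR143, RAB38 and TYR lay under 1 TPM in every S127A library, and SLC45A2 stood there at 1.01, 0.8 and 0.52 TPM. None of the 10 markers was listed at 0 in every library. The summed level of 10 fibroblast markers was 16.04 to 17.2 TPM in WT and 298 to 310 TPM in S127A, most of the latter COL1A2 (267 to 279 TPM). Of 5 fibroblast markers tested, 4 were higher in S127A (COL1A2, COL1A1, PDGFRA and PDGFRB) and 1, POSTN, was lower. COL1A1 rose from 0.587 ± 0.0896 to 10.66 ± 0.447 TPM and PDGFRA from 0.383 ± 0.0252 to 5.98 ± 0.224 TPM. POSTN fell from 7.79 ± 0.912 to 0.0667 ± 0.0231 TPM. Among those not tested, COL3A1 went from 0.02 ± 0.0346 to 1.25 ± 0.151 TPM. DCN went from 0 in each WT library to 1.02 ± 0.0781 TPM in S127A. LUM was at 0.06 TPM in each WT library and at 0 in each S127A library. FBN1 and THY1 stayed under 1 TPM in every library. For 7 immune markers the summed level was 7.89 to 9.24 TPM against 51.2 to 53.3 TPM, most of the latter CD14, while PTPRC, the pan-leukocyte marker, stayed at or under 0.1 TPM in every library. For 7 endothelial or epithelial markers it was 0.23 to 0.47 TPM against 63.1 to 64.1 TPM, nearly all KRT18. ZBTB5 itself had a level of 15.5 ± 0.54 TPM in WT libraries and of 8.90 ± 0.569 TPM in S127A libraries (mean ± SD, n = 3, as for all values with ± here), which does not show the substitution. The part of these marker differences in the results on the enzymes was not tested.

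Levels of the 10 enzymes differed between the groups in a mixed and small way. In S127A 6 were higher (PFAS, PAICS, ADSL, ATIC, IMPDH2 and UMPS), 3 were lower (PPAT, GART and CAD), and DHODH was not called. Among all tested genes 90.0% were called, 40.2% higher and 49.8% lower, so 9 calls of 10 is the share of the background. The groups did not overlap for 9 of the 10 enzymes, and for 90.2% of all tested genes. Sizes lay below the background. No enzyme reached a 2-fold difference, against 35.4% of all tested genes that were called and changed at least 2-fold. On TPM as deposited, the absolute log2 difference of each of the 10 was below the median of 0.69 over all tested genes. ADSL had the largest, 0.68, and with each rescaling of the libraries it passed that median (0.74 against 0.68 with a common total, 0.78 against 0.68 with TMM factors, a trimmed mean of log ratios, 0.78 against 0.68 with quantile normalization). The median log2 difference was 0.33 over the 10 enzymes and −0.12 over all tested genes. Quantile normalization moved the median of all genes by 0.11, and the higher share of all called genes went from 44.7% on TPM as deposited to 49.8%.

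**Figure D1:**
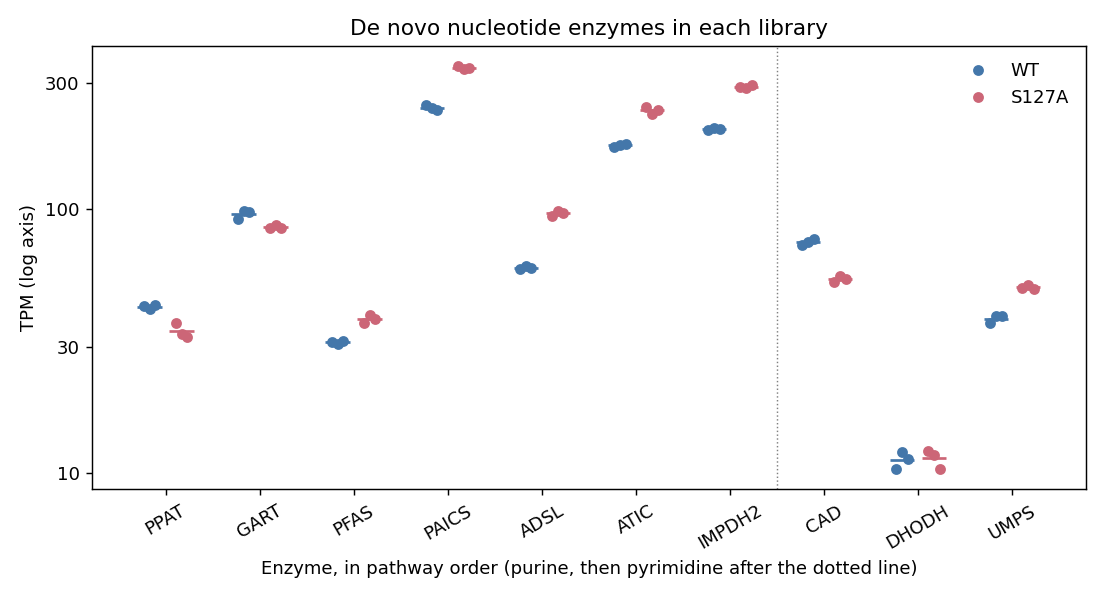
Level of each enzyme in each library, in TPM on a log axis. Points are the 3 libraries of a group and the line is their mean; WT and S127A do not overlap for 9 of 10 enzymes, and DHODH overlaps.

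Calls differed along each route. PPAT and GART, which act at the start of the purine route, were lower in S127A, and PFAS, PAICS, ADSL and ATIC, which carry most of the later steps, were higher. In the pyrimidine route CAD, which opens it, was lower, DHODH was not called, and UMPS, which closes it, was higher. GART also carries a later step. It was not called with TMM factors or quantile normalization, so at the start of the purine route only PPAT kept its call. This order along the routes was seen in the values and not tested.

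PPAT, the amidotransferase that commits PRPP to purines, stood at 42.8, 41.55 and 43.3 TPM in WT and at 37.0, 33.5 and 32.7 TPM in S127A. It was lower by a log2 difference of −0.30 (SE 0.0505, adjusted p = 0.000178 by limma), and the groups did not overlap. GART, which carries several steps including a formyl transfer, held 91.6, 98.3 and 97.7 TPM in WT against 84.7, 86.5 and 84.9 TPM in S127A. Its difference was −0.16 (SE 0.0363, adjusted p = 0.00131 by limma), with the S127A libraries just below the lowest WT library. GART was no longer called after TMM scaling (−0.07, adjusted p = 0.112) or quantile normalization (−0.06, adjusted p = 0.139), over a range of adjusted p from 0.000474 to 0.139 in 18 alternatives. Of the 3 lower enzymes it is therefore the one whose call rests on the scaling.

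The later enzymes of the IMP route rose. PFAS, a glutamine-using amidotransferase, was at 31.3, 30.9 and 31.6 TPM in WT and at 36.8, 39.7 and 38.3 TPM in S127A, a difference of 0.28 (SE 0.0425, adjusted p = 7.61e-05). PAICS, a fused carboxylase and ligase that brings in carbon dioxide and aspartate, was the most abundant of the 10 in both groups. It held 247, 240.3 and 236 TPM in WT and 348, 339 and 342 TPM in S127A, 0.51 higher (SE 0.0283, adjusted p = 1.53e-08). Both sets of libraries were separate, by a wider margin for PAICS.

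ADSL, a lyase that releases fumarate and acts a further time on the way to AMP, rose the most of the 10. Its levels were 59.0, 60.5 and 59.5 TPM in WT and 94.0, 98.3 and 96.6 TPM in S127A, 1.61-fold higher (log2 difference 0.68, SE 0.0335, adjusted p = 5.04e-09). ATIC, which adds the last formyl group and closes the ring, went from 172, 174 and 176 TPM to 243, 229 and 237 TPM (0.44, SE 0.0308, adjusted p = 1.16e-07). IMPDH2, the rate-limiting dehydrogenase on the way to GMP, went from 199, 203 and 201 TPM to 290.3, 288 and 294 TPM (0.53, SE 0.0265, adjusted p = 5.73e-09). In these 3 genes the lowest S127A library lay well above the highest WT library.

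CAD, the fused enzyme that starts pyrimidine synthesis and a known substrate of the S6 kinase, had the largest fall of the 10. It was at 73.1, 75.1 and 76.6 TPM in WT and at 52.8, 55.4 and 54.4 TPM in S127A, a log2 difference of −0.46 (SE 0.0363, adjusted p = 3.2e-07 by limma). DHODH, which passes electrons from dihydroorotate to the respiratory chain, was the least abundant. Its libraries overlapped, at 10.3, 11.98 and 11.3 TPM in WT and 12.1, 11.6 and 10.3 TPM in S127A. The difference was 0.02 with a 95% interval of −0.15 to 0.18 (adjusted p = 0.84 by limma), so a shift within that interval was not excluded. UMPS, the fused enzyme that makes UMP from orotate, went from 36.9, 39.1 and 39.2 TPM to 49.97, 51.5 and 49.7 TPM (0.38, SE 0.0402, adjusted p = 3.69e-06 by limma).

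**Figure D2:**
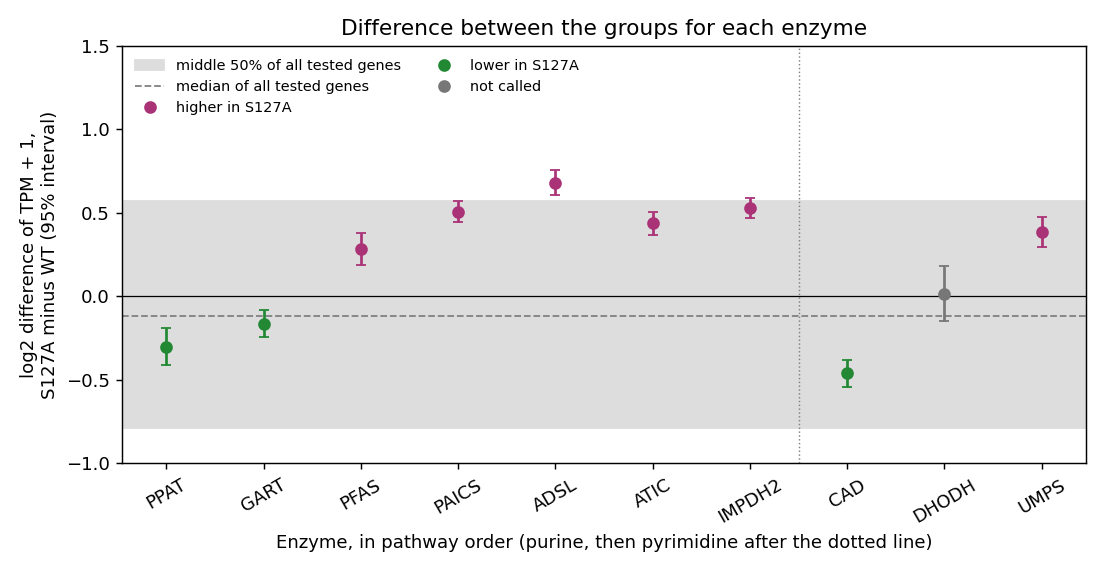
Log2 difference of TPM + 1, S127A minus WT, for each enzyme in pathway order, with its 95% interval. The grey band spans the quartiles of all tested genes, −0.79 to 0.57, and the dashed line is their median, −0.12; of the 10 enzymes ADSL alone lies outside the band.

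The order of the levels shifted with these differences. In WT the means ran from PAICS (241 TPM) through IMPDH2 (201), ATIC (174), GART (95.8), CAD (74.9), ADSL (59.7), PPAT (42.6), UMPS (38.4) and PFAS (31.3) to DHODH (11.2 TPM), and no neighbours in that order overlapped over their 3 libraries. In S127A PAICS, IMPDH2 and ATIC kept the top at 343, 291 and 236 TPM, and ADSL (96.3 TPM) stood above GART (85.3 TPM). CAD (54.2) and UMPS (50.4 TPM) came next, and the libraries of PFAS (38.3) and PPAT (34.4 TPM) overlapped. Summed over the 6 enzymes from PRPP to IMP, levels were 644 ± 1.29 TPM in WT and 834 ± 8.44 TPM in S127A. The 3 pyrimidine enzymes summed to 125 ± 3.64 TPM (WT) and 116 ± 2.28 TPM (S127A). All 10 together held 0.112% of the table's total in WT and 0.149% in S127A.

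Ratios within a library do not depend on a factor common to its genes, as TMM factors or a common total are, though quantile normalization can move them. UMPS to CAD was 0.505, 0.52 and 0.512 in WT and 0.947, 0.929 and 0.914 in S127A. ADSL to PPAT was 1.38, 1.46 and 1.37 in WT and 2.54, 2.94 and 2.96 in S127A, and ATIC to GART went from 1.82 ± 0.0534 to 2.77 ± 0.112. These 3 ratios were chosen after the values were seen and are given with no test.

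The pair PPAT and PAICS moved in opposite directions although their genes begin at one place. On mm10, in the GENCODE annotation, Ppat (ENSMUSG00000029246.14) lies on chromosome 5 from 76913249 to 76951578 on the minus strand and Paics (ENSMUSG00000029247.17) from 76951307 to 76967509 on the plus strand, so that exons at their 5′ ends overlap over 272 bases. Those bases are 6.15% of the annotated exon bases of Ppat and 8.67% of those of Paics, and without a stated strand setting reads there cannot be assigned to one gene. The ratio of PPAT to PAICS was 0.174, 0.173 and 0.183 in WT and 0.106, 0.0987 and 0.0955 in S127A (log2 difference −0.82). A two-sided exact permutation test returned p = 0.1, the lowest that 6 libraries in groups of 3 can reach, also after adjustment over the 4 ratios tested (adjusted p = 0.1).

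Promoter windows, from 250 bases before to 50 after the start site, are shown for the overlapping pair and for the other enzymes whose window held one of the 2 marked motifs. They come from RefSeq on GRCm38.p6, which held a window for 8 of the 10 enzymes (not for PFAS and DHODH). Capitals mark CACGTG, the E-box to which MYC and MAX are known to bind, and TGACGTCA, the cAMP response element (CRE) known for CREB and ATF factors, searched on both strands. The windows of PPAT (chr5:76951529-76951828, minus strand), PAICS (chr5:76951052-76951351, plus strand), ATIC (chr1:71556906-71557205, plus strand), IMPDH2 (chr9:108560186-108560485, plus strand) and UMPS (chr16:33966989-33967288, minus strand) read 5′ to 3′ as follows.
PPAT: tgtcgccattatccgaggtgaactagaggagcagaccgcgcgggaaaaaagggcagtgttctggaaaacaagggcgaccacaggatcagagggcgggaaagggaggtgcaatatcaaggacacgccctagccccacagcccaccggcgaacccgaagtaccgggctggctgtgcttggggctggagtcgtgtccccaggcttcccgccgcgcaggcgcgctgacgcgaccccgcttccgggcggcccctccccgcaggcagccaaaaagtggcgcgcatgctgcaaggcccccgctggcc
PAICS: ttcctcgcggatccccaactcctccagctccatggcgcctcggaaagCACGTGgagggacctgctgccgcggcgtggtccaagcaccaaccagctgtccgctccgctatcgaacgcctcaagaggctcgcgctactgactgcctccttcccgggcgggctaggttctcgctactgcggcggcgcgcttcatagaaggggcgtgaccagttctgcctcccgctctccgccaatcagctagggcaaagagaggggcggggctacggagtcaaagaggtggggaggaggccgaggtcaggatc
ATIC: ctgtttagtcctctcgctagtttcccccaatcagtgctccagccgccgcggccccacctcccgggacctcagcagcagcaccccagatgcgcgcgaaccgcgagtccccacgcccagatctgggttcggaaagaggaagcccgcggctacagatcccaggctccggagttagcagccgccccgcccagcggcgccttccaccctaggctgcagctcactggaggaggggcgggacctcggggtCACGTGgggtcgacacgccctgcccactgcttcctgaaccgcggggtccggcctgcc
IMPDH2: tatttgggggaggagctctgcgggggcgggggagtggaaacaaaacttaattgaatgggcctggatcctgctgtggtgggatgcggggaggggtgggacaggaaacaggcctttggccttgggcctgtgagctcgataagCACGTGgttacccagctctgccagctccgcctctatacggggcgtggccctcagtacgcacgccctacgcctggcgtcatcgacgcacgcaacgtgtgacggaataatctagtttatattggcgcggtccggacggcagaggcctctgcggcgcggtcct
UMPS: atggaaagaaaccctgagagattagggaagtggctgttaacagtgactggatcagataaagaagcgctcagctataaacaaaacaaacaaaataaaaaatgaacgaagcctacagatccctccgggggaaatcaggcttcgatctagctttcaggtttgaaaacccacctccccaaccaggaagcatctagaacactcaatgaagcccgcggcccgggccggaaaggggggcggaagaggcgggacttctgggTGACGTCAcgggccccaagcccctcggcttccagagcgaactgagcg
An E-box stood in 3 of the 8 windows, against 7.15% of 32851 windows of that length. Counted from the RefSeq start, it lay 203 bases before in PAICS, 110 before in IMPDH2 and 7 before in ATIC. The GENCODE gene Impdh2 begins earlier than the RefSeq start, at 108560286, so this E-box lies inside the gene in that annotation. A CRE stood in 1 of 8, that of UMPS, against 1.79% of all windows. The CCAAT box, searched as CCAAT and not marked above, was in 4 of 8 (GART, PAICS, ATIC and IMPDH2) against 37.4%. No E-box or CRE was found in the windows of PPAT, GART, ADSL and CAD, which says only that these letters are not in them. ADSL, which rose the most of the 10 (log2 difference 0.68), had none of the 3 motifs in its window. Whether a match bears on a level was not tested. A match is a description and not a shown binding site.

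The other enzymes lie at the following places on mm10 in the GENCODE annotation. Gart (ENSMUSG00000022962.15) is on chromosome 16 from 91621186 to 91646952, minus strand, and Umps (ENSMUSG00000022814.6) on chromosome 16 from 33954782 to 33967038, minus strand. Pfas (ENSMUSG00000020899.16) is on chromosome 11 from 68985697 to 69008460, minus strand. Adsl (ENSMUSG00000022407.10) is on chromosome 15 from 80948490 to 80970946 and Atic (ENSMUSG00000026192.13) on chromosome 1 from 71557150 to 71579631, both on the plus strand. Impdh2 (ENSMUSG00000062867.13) is on chromosome 9 from 108560286 to 108565584 and Cad (ENSMUSG00000013629.16) on chromosome 5 from 31054780 to 31078479, both on the plus strand. Dhodh (ENSMUSG00000031730.18) is on chromosome 8 from 109591343 to 109608673, minus strand. An antisense gene shares 19.71% of the exon bases of Gart and another 6.11% of those of Umps, and Ndufaf3 on the opposite strand shares 1.56% of those of Impdh2. The antisense genes are not among the symbols used here, and how many reads the overlaps hold was not measured, so the levels of these genes, and with them the small fall of GART, are uncertain. A processed pseudogene, Impdh2-ps, is annotated, and reads it shares with Impdh2 could have been split.

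**Figure D3:**
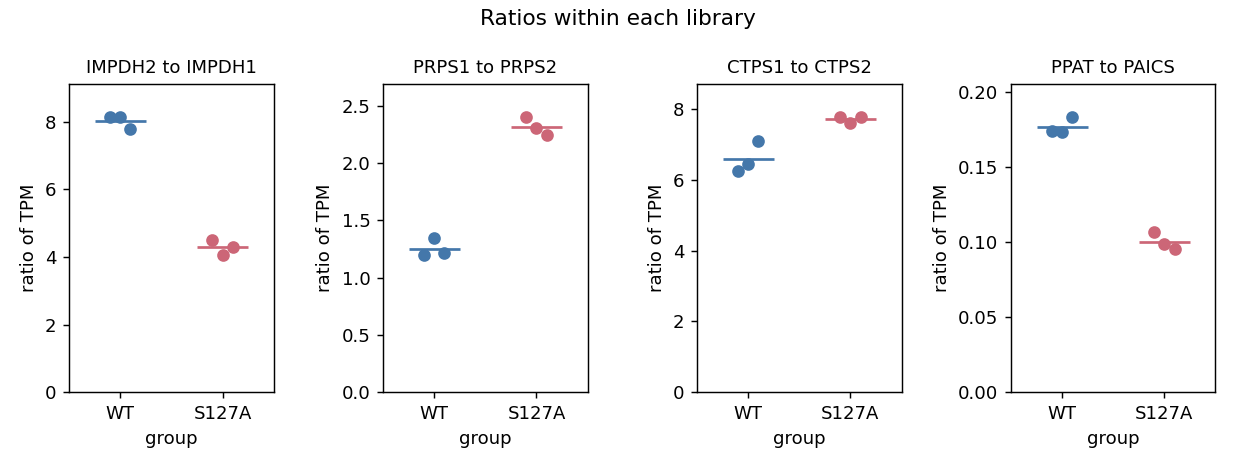
Ratio of TPM within each library for 4 pairs of genes, with the mean of 3 libraries per group as a line and axes that start at 0. The groups are separate in each panel; CTPS1 to CTPS2 lies closest, at 6.60 in WT and 7.73 in S127A.

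IMPDH1 and PRPS1, isoenzyme genes beside the 10 enzymes, rose by more than any of the 10. IMPDH1, the second IMP dehydrogenase, rose from 25.1 ± 0.687 to 67.9 ± 3.26 TPM (log2 difference 1.40, adjusted p = 1.46e-10 by limma), so the ratio of IMPDH2 to IMPDH1 fell from 8.14, 8.14 and 7.78 to 4.50, 4.06 and 4.30. PRPS1, one of the enzymes that make PRPP, rose from 33.1 ± 0.962 to 103 ± 2.16 TPM and its isoenzyme PRPS2 from 26.5 ± 1.45 to 44.5 ± 1.10 TPM, and PRPS1 to PRPS2 went from 1.25 ± 0.0789 to 2.32 ± 0.0809. CTPS1, which makes CTP from UTP, rose from 75.2 ± 2.79 to 116 ± 2.81 TPM and CTPS2 from 11.4 ± 0.464 to 15.0 ± 0.345 TPM. Each of these 3 ratios had the same two-sided exact permutation p = 0.1 (adjusted p = 0.1 over 4).

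Over all tested genes 40.2% were higher and 49.8% lower, the shares to set beside the counts of this and the following lists. Among 15 genes of steps beside and after the 10 enzymes, 6 rose, 5 fell and 4 were not called. Their median log2 difference was 0.01 against −0.12 over all tested genes. The number higher was 8 with TMM factors or quantile normalization and 7 with a common total. ADSS, which starts the branch to AMP, rose from 67.3 ± 1.19 to 143 ± 3.15 TPM. GMPS, which completes GMP after IMPDH2 and was named after its values were seen, held 73.4 ± 1.88 TPM (WT) and 72.0 ± 0.51 TPM (S127A) (adjusted p = 0.446 by limma). The mitochondrial adenylate kinases AK3 and AK4 fell from 91.2 ± 2.64 to 6.74 ± 0.465 TPM and from 41.0 ± 3.88 to 1.74 ± 0.284 TPM, and the nucleoside diphosphate kinase NME1 from 438 ± 12.2 to 198 ± 5.18 TPM. These falls are larger than that of any of the 10 enzymes.

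**Figure D4:**
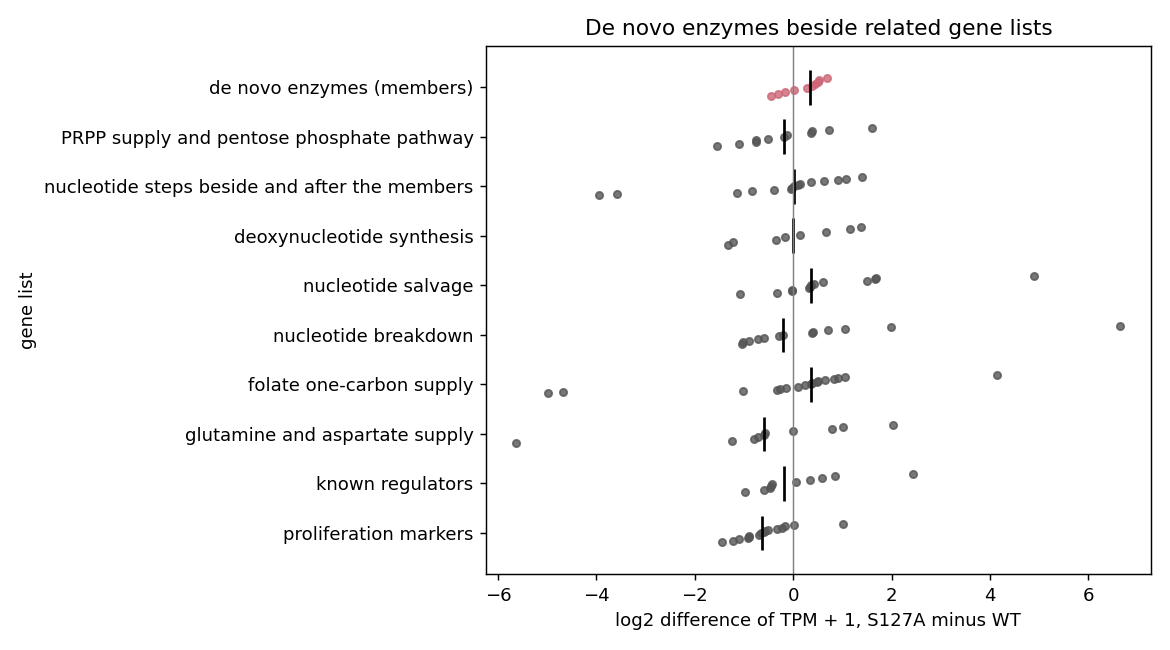
Log2 difference of TPM + 1, S127A minus WT, for the tested genes of each list, 1 point per gene, with the list's median as a vertical bar. The 10 de novo enzymes span −0.46 to 0.68, while the related lists reach from −5.63 (ASS1) to 6.65 (XDH).

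Of 11 genes of PRPP supply and the pentose phosphate pathway, which makes ribose phosphate and NADPH, 4 rose and 7 fell (median −0.18). The number lower was 5 with TMM factors and 6 with quantile normalization or a common total. The PRPP synthetases rose, whereas PRPSAP1, a protein associated with them, fell from 121 ± 5.78 to 40.5 ± 2.33 TPM. TKT and TALDO1, the transferases of the nonoxidative arm, fell from 214 ± 5.76 to 99.5 ± 1.70 TPM and from 171 ± 1.98 to 100.5 ± 4.80 TPM.

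Folate one-carbon genes, which supply the formyl groups used by GART and ATIC, were higher for 10 of 17 and lower for 6 (median 0.36). With each of the 3 rescalings 11 were higher and 5 lower. MTHFD2L, a mitochondrial folate dehydrogenase, rose from 0.467 ± 0.0351 to 24.8 ± 1.25 TPM. MTHFD1L, which releases mitochondrial formate, fell from 180.5 ± 1.15 to 88.2 ± 1.48 TPM. ALDH1L1, which consumes formyl folate, fell from 35.4 ± 2.53 to 0.147 ± 0.0231 TPM, and the folate hydrolase GGH from 25.9 ± 2.20 to 0.05 ± 0.0625 TPM.

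Glutamine and aspartate supply was lower for 6 of 10 tested genes and higher for 3 (median −0.58), with 4 higher under quantile normalization. SLC1A5, a glutamine transporter, rose from 117 ± 4.77 to 484 ± 4.14 TPM, and ASNS, which spends aspartate and glutamine to make asparagine, from 371 ± 17.03 to 744 ± 12.9 TPM. ASS1, which also consumes aspartate, fell from 61.9 ± 3.38 to 0.277 ± 0.117 TPM, and the mitochondrial aspartate carrier SLC25A13 from 97.0 ± 1.80 to 40.7 ± 1.53 TPM.

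Salvage enzymes, which recycle bases and nucleosides and so bypass the de novo routes, were higher for 9 of 13 and lower for 2 (median 0.36), with the same counts under each rescaling. UPP1, a uridine phosphorylase, stood at 2.12, 2.29 and 1.51 TPM in WT and at 81.4, 87.3 and 93.9 TPM in S127A. PNP, the purine nucleoside phosphorylase, rose from 18.1 ± 0.616 to 60.5 ± 1.09 TPM and APRT, which recycles adenine, from 126.8 ± 3.42 to 406 ± 26.1 TPM. Thymidine kinase TK1, known to be high in S phase, fell from 197 ± 1.33 to 93.3 ± 5.14 TPM.

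Nucleotide breakdown genes were higher for 5 and lower for 7 of 13 tested, of 18 found (median −0.21). The counts were 6 higher and 7 lower with TMM factors or a common total, and 6 and 6 with quantile normalization. XDH, the xanthine dehydrogenase of purine breakdown, was at 0.35, 0 and 0.16 TPM in WT and at 114, 114 and 119 TPM in S127A. CDA, a cytidine deaminase, went from 0.31 ± 0.165 to 4.21 ± 0.641 TPM and the dNTP hydrolase SAMHD1 from 38.1 ± 0.429 to 80.2 ± 3.14 TPM, while the nucleotidase NT5C fell from 87.7 ± 1.90 to 42.9 ± 2.09 TPM.

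Deoxynucleotide synthesis was higher for 4 of 8 and lower for 4 (median −0.01), with 3 lower under TMM factors. RRM1 and RRM2, the subunits of ribonucleotide reductase in dividing cells, fell from 258 ± 2.96 to 103 ± 0.982 TPM and from 395 ± 7.24 to 169 ± 1.07 TPM. RRM2B, the subunit known as a p53 target, rose from 15.0 ± 0.562 to 40.6 ± 2.99 TPM, and the deaminase DCTD from 25.5 ± 0.199 to 58.4 ± 2.94 TPM.

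Proliferation markers were lower for 14 of 16 and higher for 1 (median −0.62), with 2 higher under TMM factors or quantile normalization and 13 lower under TMM factors. Their summed level was 3209 to 3233 TPM in WT and 2325 to 2412 TPM in S127A. RRM2 and TYMS, both lower, are counted in this list and also in that of deoxynucleotide synthesis. MKI67 fell from 171 ± 2.43 to 79.2 ± 2.83 TPM and the mitotic kinase PLK1 from 128 ± 5.30 to 46.4 ± 0.682 TPM, whereas the helicase subunit MCM7 rose from 170 ± 4.55 to 342 ± 3.36 TPM. The 6 de novo enzymes that rose were thus higher in the libraries in which these markers were lower, and the part of proliferation in their levels was not tested. In bulk RNA a change in the share of dividing cells and a change per cell cannot be told apart.

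Of 10 known regulators of the routes, 4 were higher, 5 were lower and MTOR was not called. That is close to the split of the background, 40.2% higher and 49.8% lower over all tested genes. MYC, a transcription factor known to act on many of these genes, stood at 32.5, 32.5 and 36.3 TPM in WT and at 182, 195 and 183 TPM in S127A, 5.53-fold higher, beside at most 1.61-fold among the 10 enzymes. Its partner MAX fell from 86.7 ± 0.92 to 63.8 ± 3.01 TPM. ATF4 rose from 554 ± 26.6 to 993 ± 29.0 TPM and SP1 from 41.9 ± 1.40 to 63.7 ± 1.93 TPM. The S6 kinase gene RPS6KB1 fell from 61.9 ± 2.62 to 30.9 ± 1.26 TPM, while RPS6KB2 rose from 17.9 ± 1.11 to 23.0 ± 2.07 TPM. RPTOR fell from 31.9 ± 0.58 to 22.98 ± 0.845 TPM, E2F1 from 49.2 ± 0.587 to 32.3 ± 1.71 TPM and NRF1 from 35.3 ± 1.46 to 25.1 ± 0.86 TPM. MTOR held 25.7 ± 0.802 TPM (WT) and 26.9 ± 0.425 TPM (S127A) (adjusted p = 0.206 by limma), and with each of the 3 rescalings 5 regulators, MTOR among them, were higher. RNA levels do not show kinase activity or the phosphorylation of CAD.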

How the data were processed

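The deposited file holds TPM by gene symbol for 6 libraries, per the file headers, on genome build mm10, per the submitters' processing notes. Strand setting, aligner, quantifier and annotation: not given in the sources used here. Columns summed to 862949 to 864529 TPM in WT and 830745 to 833332 TPM in S127A, and depth is unknown. Groups and replicate numbers came from the sample titles. Genes with a mean of at least 1 TPM were fitted on log2(TPM + 1) with limma 3.58.1 in R 4.3.3 (lmFit, eBayes with trend), two-sided, genotype as the only term, adjusted by Benjamini-Hochberg over 10348 genes. At that mean, 31 symbols repeated the values of another. The fit was tested on simulated data. Of the 4 ratios, each was compared by an exact permutation test over libraries. Named genes were the 10 enzymes, the genes of the 4 ratios, the regulators, and from each related list up to 4 genes with the smallest adjusted p; markers of other cell types were summed per library. Members, lists and tests were chosen with earlier results of these data known. The alternatives were other pseudocounts, filters, scalings (a trimmed mean of M values, TMM, computed on the TPM), limma settings, a replicate block, identical symbols counted once, and leaving out each library. Sequences are from RefSeq on GRCm38.p6, positions from GENCODE on mm10; summaries used Python 3.11.15.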

Additional observations from a re-analysis of the deposited data

How the results depend on the processing

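Over 18 alternatives the number of enzymes higher was 6 in each, and the number lower was 3 except with TMM factors and quantile normalization, where it was 2 because GART lost its call. PPAT, PFAS, PAICS, ADSL, ATIC, IMPDH2, CAD and UMPS kept direction and call in all 18, and DHODH was called in none. Leaving out each library in turn gave −0.35 to −0.27 for PPAT and 0.67 to 0.70 for ADSL. With the replicate block, 6 enzymes were higher and 3 lower, and 4178 genes were higher and 5161 lower in all against 4161 and 5154 without it. Deviations of same-numbered libraries correlated at 0.117, 0.0174 and 0.0279, so the numbers were not taken to pair the libraries, and not every library correlated best with its own number. Of 468 counts for related lists and marker lists under alternatives, 461 stayed within 1.5 times the reported count. Among the related lists the exceptions were 2 proliferation markers higher with TMM factors and with quantile normalization, against 1. With 3 libraries per group, no exact permutation test of a ratio could fall below p = 0.1, and without depth no counting error could be given.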
